A study of Oryctolagus cuniculus with 8 samples.

Results

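The miR-450 family and the miR-506 and miR-509 family are 2 groups of small regulatory RNAs, and their levels were read in extracellular vesicles from the oviductal and uterine fluid of rabbits. Mature miRNAs named miR-450a, miR-450b, miR-424, miR-503, miR-542, miR-506, miR-508, miR-509a, miR-509b or miR-509c were taken on both arms, and those with 10 or more reads over the 8 libraries were kept as members. Of 21 such names in the table of 579, 8 names passed, and they gave 7 distinct profiles because miR-509b-5p and miR-509c-5p had identical reads in every library. That pair is written miR-509b/c-5p below, and its reads cannot be assigned to either precursor. In the table's spelling they were ocu-miR-450a-5p, ocu-miR-450b-5p, ocu-miR-424-3p, ocu-miR-509b-5p with ocu-miR-509c-5p, ocu-miR-509c-3p, ocu-miR-509a-3p and ocu-miR-506-3p, written without ocu below. The families were selected on their levels in these libraries, since miR-450a-5p and miR-509b-5p stood higher in uterine than in oviductal libraries. The difference between the 2 fluids is therefore given for all members as a description, with no test.

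Extracellular vesicles are small membrane-bound bodies shed by cells, and they carry part of the RNA of those cells. The does were wild-type California x New Zealand white rabbits that had littered 4 to 6 times. Every doe received eCG, a hormone that stimulates the ovary, at 25 IU. Ovulation was induced 48 h afterwards with a GnRH analogue at 20 µg, so no untreated group was included. Tracts were collected at least 14 to 15 h after that injection. The oviductal group held 5 libraries of 3 pooled animals each and the uterine group 3 libraries of 5 pooled animals each. These pools have 30 places for 21 does, so some does are in more than 1 pool, and values measure the spread between pools that may share animals. The uterine libraries are titled 12, 3 and 4. The flush volume was 1.0 mL in the oviductal and 2.2 mL in the uterine group, so volume and fluid cannot be told apart.

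The miR-450 family is transcribed with miR-424, miR-503 and miR-542 from a cluster on the X chromosome of mammals. In other species miR-424-5p and miR-503-5p belong to the miR-15/miR-16 group, which represses cyclins and other cell cycle genes. The miR-506 and miR-509 family forms another X-linked cluster, which changes quickly between mammals and is best known from testis and germ cells. A miRNA precursor is a hairpin whose 5p and 3p arms each give a mature product, and usually 1 of them is retained. All 13 precursors looked up in the RefSeq gene table (assembly mOryCun1.1, with miR-507 and miR-513 included) were found on the X chromosome. There mir-450b, mir-450a-1, mir-450a-2 and mir-542 followed each other with no annotated gene between them. After 2 other genes came mir-503 and mir-424, also side by side. The second cluster ran mir-513, mir-509c, mir-506, mir-508, mir-507, mir-509b and mir-509a with no gene between, and 124 annotated genes separated it from the first.

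Oviductal libraries ranged from 42684 to 569087 miRNA reads and uterine ones from 232546 to 479865. Levels are given as CPM, the counts scaled to 1000000 of these reads. A count of 0 allows up to 3 reads, which is 5.27 to 11.8 CPM in oviductal replicates 1, 4 and 5, but 63.0 and 70.3 CPM in the shallow replicates 2 and 3. The same limit was 12.9, 6.25 and 10.3 CPM in uterine replicates 12, 3 and 4. Intervals in brackets are 95% Wilson intervals. They and these limits cover counting error only, since the reads were not counted as single molecules. All members together had 722 reads, 0.0306% of the total, so every statement here rests on small counts.

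Members were concentrated in 2 uterine libraries. Uterine replicates 12 and 4 held 44.2% and 44.3% of all member reads, against 9.86% and 12.3% of the reads of all miRNAs. Uterine replicate 3 held 3.74% of member reads and 20.3% of all reads, and the 5 oviductal libraries together held 7.76% and 57.5%. Summed over the 7 profiles, the level was 1372, 56.3 and 1098 CPM in uterine replicates 12, 3 and 4. In oviductal replicates 1 to 5 it was 70.2, 21.0, 164, 11.8 and 24.6 CPM. Uterine replicate 3 thus lay inside the oviductal range. The group means were 842 ± 694 CPM (SD, n = 3) and 58.3 ± 63.3 CPM (SD, n = 5). Without uterine replicate 3 the uterine mean was 1235 CPM, and without oviductal replicate 3 the oviductal mean was 31.9 CPM. The names that led to the choice, miR-450a-5p and miR-509b/c-5p, gave 76.9% of member reads. In addition, miR-509c-3p and miR-506-3p became members through uterine reads alone. The difference between the groups thus follows in large part from the selection, and nothing is read from it. In vesicle RNA, fewer vesicles from a cell type and fewer copies in each vesicle cannot be told apart.

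The most abundant member was miR-450a-5p, a product of mir-450a-1 and mir-450a-2, whose 5p arms cannot be separated. It had 136, 9 and 148 reads in uterine replicates 12, 3 and 4, which is 585 [494 to 692], 18.8 [9.87 to 35.6] and 508 [433 to 597] CPM. In oviductal replicates 1 and 3 it had 10 and 4 reads, at 22.6 [12.3 to 41.7] and 93.7 [36.4 to 241] CPM, and in replicates 2, 4 and 5 it had 0 reads. Replicates 12 and 4 were above every oviductal library, while uterine replicate 3 was below oviductal replicates 1 and 3, so the groups overlapped. Against oviductal replicate 1 that order rests on 9 and 10 reads and lies within the counting intervals. The higher level that led to this choice of families therefore held for the mean and for 2 of 3 uterine libraries. The means were 371 ± 307 CPM for the uterine libraries (SD, n = 3) and 23.3 ± 40.6 CPM for the oviductal ones (SD, n = 5). The oviductal mean was 5.66 CPM without replicate 3, whose value rests on 4 reads. At the level of uterine replicate 4, oviductal replicate 5 would have held 289 reads of it, and none was seen. At the level of uterine replicate 3, it would have held 10.7 reads. Oviductal replicate 1 would have held 8.28 reads at that level, where 10 were seen. The families were chosen on this contrast, so nothing is read from these counts.

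The second member by reads was miR-509b/c-5p, of the X-linked cluster known from testis. It had 134, 17 and 78 reads in uterine replicates 12, 3 and 4, at 576 [487 to 682], 35.4 [22.1 to 56.7] and 268 [215 to 334] CPM. In oviductal replicates 1 and 5 it had 10 and 9 reads, at 22.6 [12.3 to 41.7] and 15.8 [8.32 to 30.1] CPM, and the other 3 oviductal libraries had 0 reads. Every uterine level was above every oviductal level. Replicate 3 cleared the highest oviductal library by a margin within the counting intervals. Its level would have given 1.69 and 1.51 reads in oviductal replicates 2 and 3, so their counts of 0 do not separate them from it. The means were 293 ± 271 CPM (SD, n = 3) and 7.69 ± 10.8 CPM (SD, n = 5). The uterine mean was 152 CPM without replicate 12, and the oviductal mean was 3.95 CPM without replicate 1. Of the 7 members this was the only 1 whose groups did not overlap, where 9 of 269 distinct profiles with 10 or more reads (3.35%) were higher in uterine libraries without overlap. The rule used this contrast, so nothing is read from that count.

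The third was miR-450b-5p, from the neighbouring precursor of the first cluster. It had 49, 1 and 15 reads in uterine replicates 12, 3 and 4, at 211 [159 to 279], 2.08 [0.368 to 11.8] and 51.5 [31.2 to 85.0] CPM. In oviductal replicates 1, 2 and 5 it had 1, 1 and 5 reads, at 2.26, 21.0 and 8.79 CPM, with 0 reads in replicates 3 and 4. Again uterine replicates 12 and 4 were high and replicate 3 lay among the oviductal libraries. The means were 88.1 ± 109 CPM (SD, n = 3) and 6.41 ± 8.92 CPM (SD, n = 5), with a uterine mean of 26.8 CPM without replicate 12 and an oviductal mean of 2.76 CPM without replicate 2. The intervals of replicates 12 and 4 did not overlap, whereas for miR-450a-5p from the same cluster they did. The ratio of miR-450a-5p to miR-450b-5p reads was 2.78 in replicate 12 and 9.87 in replicate 4.

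The remaining 4 members had all their uterine reads in replicate 4. The product of the 3p arm of mir-424, miR-424-3p, had 48 reads there, at 165 [124 to 218] CPM, and 0 in replicates 12 and 3. In oviductal replicates 1, 3 and 4 it had 4, 3 and 3 reads, at 9.06, 70.3 and 11.8 CPM, and 0 reads in the other 2. At the level of uterine replicate 4, replicates 12 and 3 would have held 38.3 and 79.1 reads of it, where none was seen. Its uterine median was 0 and its oviductal median 9.06 CPM. The means, 54.9 ± 95.1 CPM (SD, n = 3) and 18.2 ± 29.6 CPM (SD, n = 5), go the opposite way through 1 uterine library. The uterine mean was 0 without replicate 4, and the oviductal mean was 5.21 CPM without replicate 3.

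In the second cluster miR-509c-3p had 16 reads and miR-506-3p 10 reads, all in uterine replicate 4, at 54.9 [33.8 to 89.2] and 34.3 [18.6 to 63.2] CPM. The mature miR-506-3p is known in human ovarian cancer cells as a repressor of the transition from epithelial to mesenchymal state. Over the pooled oviductal reads, 0 reads allow up to 2.21 CPM. The pooled uterine levels of 15.9 and 9.96 CPM were 7.20-fold and 4.50-fold that limit, and both bounds rest on replicate 4 alone. By the rule, a member with 0 oviductal reads must have 10 or more uterine reads. A bound of 4.50-fold or more was therefore fixed in advance, and nothing is read from it. At its levels replicate 12 would have held 12.8 reads of miR-509c-3p and 7.98 of miR-506-3p. Reads of miR-509a-3p were in 2 libraries, 6 in oviductal replicate 1 at 13.6 [6.23 to 29.7] CPM and 5 in uterine replicate 4 at 17.2 [7.33 to 40.2] CPM. These levels did not differ beyond their counting intervals.

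**Figure D1:**
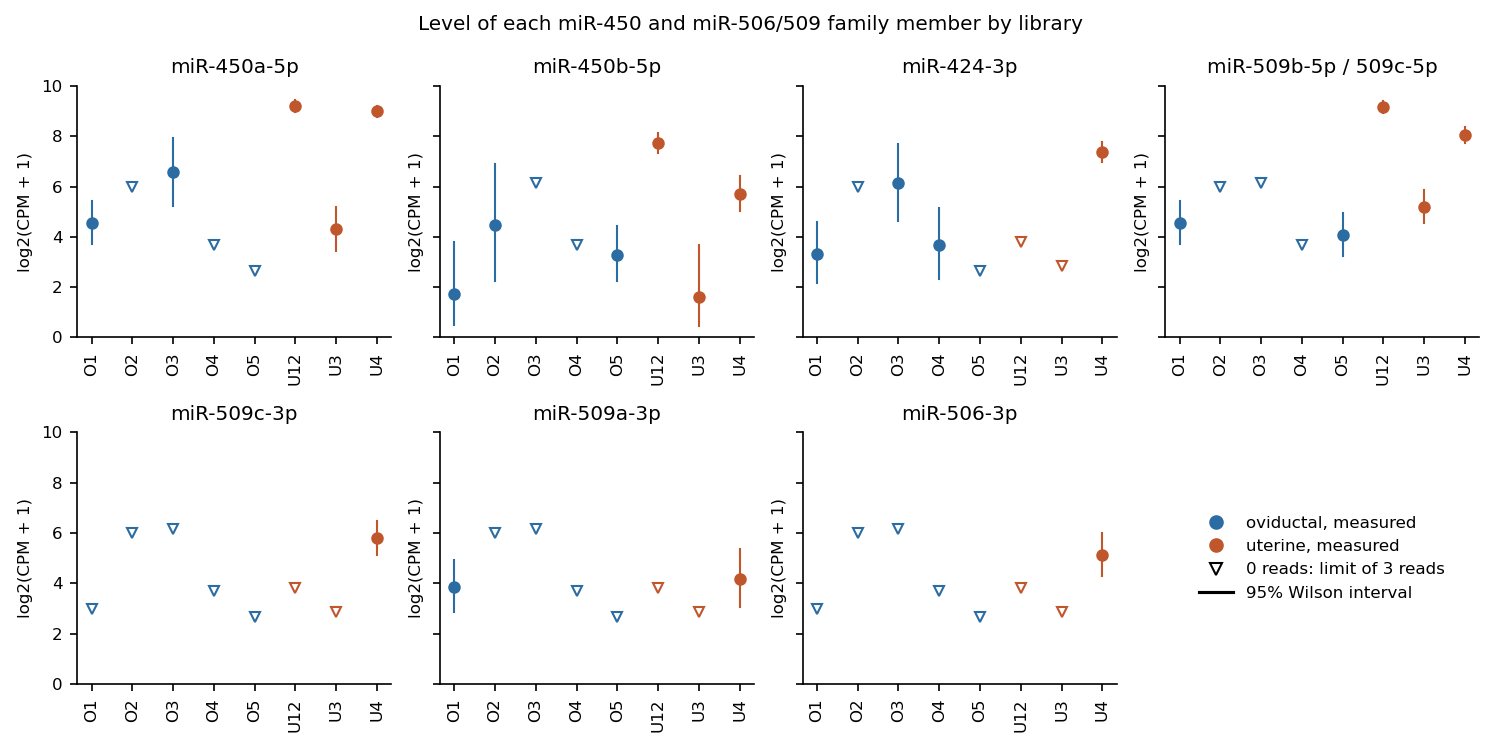
Level of each member as log2(CPM + 1) in the 5 oviductal (O, blue) and 3 uterine (U, orange) libraries, numbered as titled. Filled circles are measured values with 95% Wilson intervals, and open triangles mark the limit of 3 reads where a library had 0 reads. The upper row shows miR-450a-5p and miR-509b/c-5p high in U12 and U4 and near the oviductal libraries in U3, and the lower row shows members with reads in U4 and at most 1 other library.

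Ordered by mean uterine level, the members ran miR-450a-5p, miR-509b/c-5p, miR-450b-5p, miR-424-3p, miR-509c-3p, miR-506-3p and miR-509a-3p. Each step in that order was smaller than the SD of its higher member. In uterine vesicles miR-450a-5p and miR-509b/c-5p ranked 82 and 88 of the 299 names with reads by mean CPM. By library they ranked 57 and 58 of 160 in replicate 12 and 78 and 101 of 270 in replicate 4, but 161 and 143 of 205 in replicate 3. In oviductal vesicles they ranked 198 and 239 of 325. Their reads, 555 in all, made up 76.9% of those of the members. Within libraries the ratio of miR-450a-5p to miR-509b/c-5p reads was 1.01, 0.529 and 1.90 in uterine replicates 12, 3 and 4. It was 1 in oviductal replicate 1, where each had 10 reads. Spearman's rho between the 2 was 0.700 over the 8 libraries, and that of miR-450a-5p with its neighbour miR-450b-5p was 0.417. These are descriptions over libraries that differ in depth and contain many counts of 0.

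Names at the edge of the threshold were few. Just inside it lay miR-506-3p with 10 reads and miR-509a-3p with 11. Just outside lay miR-450a-2-3p with 4 reads, all in uterine replicate 4, miR-542-3p with 3, miR-508-3p with 2, and miR-503-5p and miR-509b-3p with 1 each. The other 8 names had no read in any library: miR-424-5p, miR-450a-3p, miR-450b-3p, miR-503-3p, miR-506-5p, miR-508-5p, miR-509a-5p and miR-542-5p. Counting the identical pair once, 9 of the 20 names had reads in uterine replicate 4, against 4 and 5 in replicates 12 and 3 and 1 to 6 in the oviductal libraries. Replicate 4 also had the most miRNA names of any library, 270, against 160 and 205 in replicates 12 and 3. Outside the rule but in the second cluster, miR-513-5p had 4 reads, also all in uterine replicate 4, and was named after its values were seen.

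Arm use was read over all libraries. Members were kept arm by arm on 10 or more reads, so an arm with few reads is no member by that rule, and the counts of both arms are given as a description. Reads came from the 5p arm for mir-450b (72 of 72, 100% [94.9% to 100%]). The 5p arm shared by mir-450a-1 and mir-450a-2 had 307 reads. Beside them stood 4 3p reads from mir-450a-2 and none from mir-450a-1. Since the 307 reads cannot be assigned, the 5p share of either precursor is not determined. The precursor mir-424 lay at the other extreme, with 0 of its 58 reads on the 5p arm (up to 6.21% by the interval). The product known in other species for the repression of cell cycle genes, miR-424-5p, was thus not detected at this depth, and the limit of 3 reads was 2.21 CPM over the oviductal and 2.99 CPM over the uterine group. Its neighbour mir-503 had 1 read.

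Within the miR-509 group the arms differed between precursors. For mir-509b and mir-509c 248 shared 5p reads stood beside 1 and 16 3p reads. For mir-509a all 11 reads were on the 3p arm, and its interval for the 5p share reached up to 25.9%. All 10 reads of mir-506 were 3p. Of the 6 precursors of these families with at least 50 reads, 5 had over 95% of reads on 1 arm. Over the whole table, 133 of 180 precursors with both arms listed and at least 50 reads (73.9%) did. Shared 5p reads are counted for both mir-450a precursors and for both mir-509b and mir-509c, so the 6 are not independent. The arm shares of these precursors are not determined, and nothing is read from the count of 5. Arms of 1 precursor can be counted differently when an arm shares its sequence with another precursor, as for the pairs named here.

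**Figure D2:**
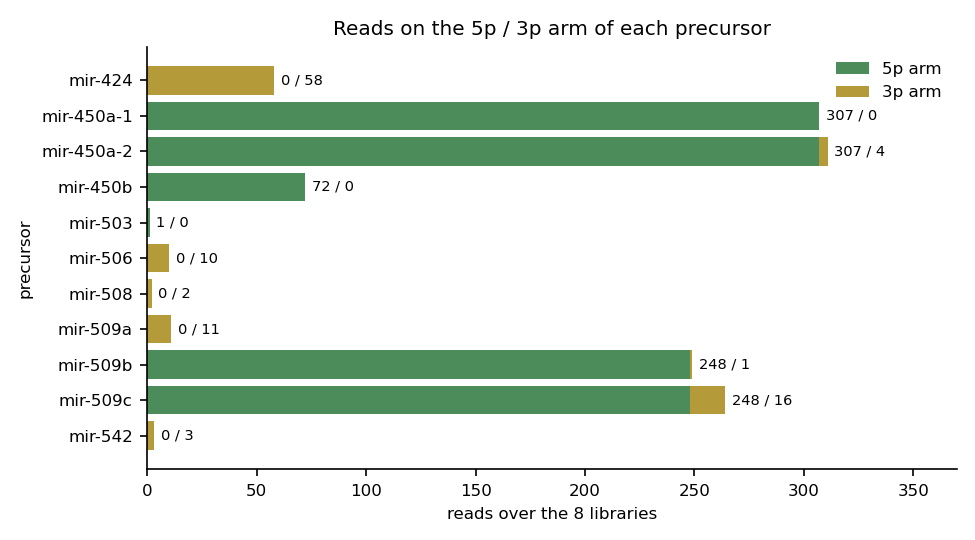
Reads over the 8 libraries on the 5p (green) and 3p (ochre) arm of each precursor, with both counts written at the bar as 5p / 3p. The 307 reads of miR-450a-5p are drawn for both mir-450a precursors and the 248 reads of miR-509b/c-5p for both mir-509b and mir-509c, since they cannot be assigned; mir-424 shows 3p reads alone.

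The question of the series was which vesicle miRNAs differ between oviduct and uterus. In the edgeR quasi-likelihood fit over all miRNAs, 3 of 178 tested names (1.69%) were called at an adjusted p under 0.05, all higher in uterine vesicles, and no member was among them. Without the 2 shallowest libraries none was called (20 at an unadjusted p under 0.05), a setting chosen after the data were seen. Without uterine replicate 3 there were 27, of which 12 were higher. Of the 7 members only miR-450a-5p passed the filter on low counts, so the fit says little about the families. It passed through 3 libraries above 36.6 CPM, uterine replicates 12 and 4 and, with 4 reads, oviductal replicate 3. The second member, miR-509b/c-5p, missed the filter because uterine replicate 3, at 35.4 CPM, fell just below that level. The log2 fold change of miR-450a-5p was 4.68 ± 1.49 (SE), uterine over oviductal, the second highest of the 178, whose median was -0.02. With no filter the log2 fold changes were 5.15 ± 1.30 for miR-509b/c-5p, 4.46 ± 1.87 for miR-450b-5p, 2.07 ± 1.99 for miR-424-3p and 0.61 ± 2.07 for miR-509a-3p (SE). Fitted values for miR-509c-3p and miR-506-3p are not given, since a fold against no oviductal reads depends on the prior count. All these are descriptions of the contrast used in the choice.

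The miRNAs whose profile over the 8 libraries was most like that of a member were found by Spearman's rho of log2(CPM + 1) among 174 tested names. For miR-509b/c-5p they were miR-708-3p (0.976), miR-24-2-5p (0.933) and miR-151-3p (0.927). The level of miR-708-3p was 1496, 339.7 and 879 CPM in uterine replicates 12, 3 and 4 and 147 to 256 CPM in the oviductal libraries. The level of miR-151-3p, an intronic miRNA of the focal adhesion kinase gene, was 39197, 14792 and 10620 CPM against 4678 to 8844 CPM. It was 1 of the 3 called names. For miR-450a-5p they were miR-10a-3p (0.854), a product of the HOX clusters, miR-186-5p and miR-199a-3p, a miRNA of mesenchymal cells (0.805 each). The level of miR-10a-3p was 241, 16.7 and 106 CPM in the same uterine libraries, and 258 CPM in oviductal replicate 3, where miR-450a-5p also had its highest oviductal level. No other member had 10 reads in 3 libraries, as the rule for this comparison required. Both members were picked as higher in uterine libraries, so names most like them tend to share that contrast. Their likeness, and the call of miR-151-3p, are therefore descriptions from which nothing is read about the members.

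**Figure D3:**
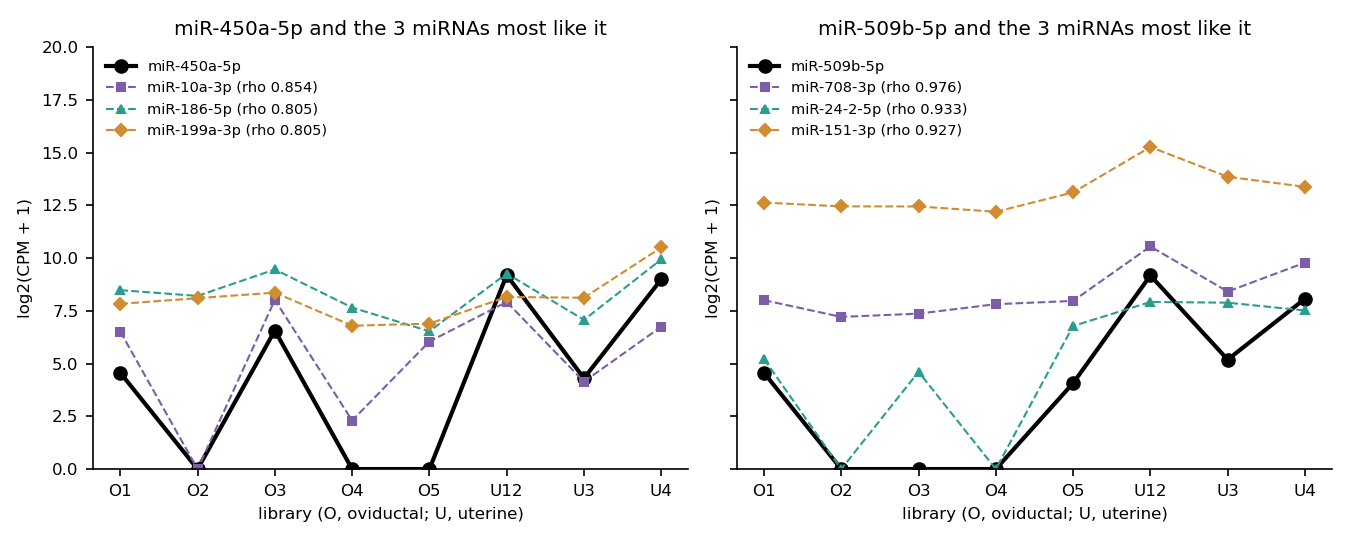
Levels as log2(CPM + 1) of miR-450a-5p (left) and miR-509b/c-5p (right) in black, with the 3 miRNAs of the highest Spearman's rho in colour, over the 8 libraries. Lines join libraries only to guide the eye. In both panels the black line peaks in U12 and U4 with a dip in U3, and lies at 0 in 3 oviductal libraries.

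The miR-15/miR-16 group was counted next, since miR-424-5p and miR-503-5p of the first cluster belong to it. Neither of these is a member. The 5p arms of the group were taken after the data were seen. They summed to 47.1 to 378 CPM in oviductal and 4.30 to 278 CPM in uterine libraries. Of these 8 names 2 were tested and neither was called. The log2 fold change was -1.22 ± 1.40 (SE) for miR-16b-5p and -1.02 ± 1.71 (SE) for miR-195-5p. The wider list, with both arms and miR-6529, had 5 tested members, 2 positive and 3 negative with a median of -0.48 and none called. Whether miR-6529 belongs to it was not checked by sequence. Its 2 most abundant members were miR-6529-5p at 0.74 ± 0.74 and miR-195-3p at 1.20 ± 1.06 (SE).

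Other miRNAs that lie on the X chromosome in human were measured as a further list. Of 34 names 29 were in the table, and 15 mature products were tested, with 6 positive and 9 negative values, a median of -0.22 and none called. The most abundant was miR-98-5p, a let-7 relative, with oviductal libraries at 3195 ± 554 CPM (SD, n = 5), uterine libraries at 1312 ± 171 CPM (SD, n = 3) and a log2 fold change of -0.89 ± 0.48 (SE). The next was miR-222-3p at 717 ± 268 and 882 ± 1043 CPM, with 0.36 ± 0.70 (SE). Over all 178 tested names 87 were positive and 91 negative. In the list of the first cluster miR-450a-5p was the only tested name. Of the 20 names listed for the second cluster 6 were in the table, and none of their products was tested.

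Markers of other cells whose vesicles the fluids could hold, with smooth and striated muscle in 1 list, differed between the same libraries. The muscle list, with 6 of 9 markers detected and miR-133b-3p, miR-208a-3p and miR-208b-3p at 0, summed to 25139, 5689 and 45028 CPM in uterine replicates 12, 3 and 4 and to 3720 to 4620 CPM in oviductal libraries. Its 2 most abundant markers were miR-143-3p, 1 of the 3 called names, and miR-1-3p. All 4 tested markers of the list had positive log2 fold changes. The untested miR-133a-3p went the other way, with 62.5 ± 101 CPM in oviductal (SD, n = 5) and 18.5 ± 13.9 CPM in uterine libraries (SD, n = 3). The oviductal range of miR-206-3p, 63.0 to 187 CPM, overlapped its uterine levels. The 4 epithelial markers in the table, of 7 listed, all had reads. Led by miR-200c-3p and miR-375-3p, they summed to 7220, 30144 and 19607 CPM against 54097 to 61850 CPM. The multiciliated list, with 6 of 7 markers in the table and all 6 detected, summed to 4950, 33762 and 13329 CPM against 27711 to 61233 CPM. Its most abundant were miR-34c-5p and miR-34b-3p. Epithelial and multiciliated markers of the labelled tissues were thus present in every library.

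Uterine replicate 3, the uterine library lowest in members, had the lowest muscle sum and the highest epithelial and multiciliated sums of the 3. Single markers did not all follow these sums. The muscle sum was mostly miR-143-3p, while miR-1-3p was at 2322, 754 and 120 CPM and miR-206-3p at 249, 91.7 and 27.5 CPM in uterine replicates 12, 3 and 4, both lowest in replicate 4. Likewise miR-141-3p and miR-449a-5p were higher in replicate 4, at 1376 and 487 CPM, than in replicate 3, at 929 and 0 CPM. These 3 markers and miR-133a-3p, outside the 2 most abundant of their list, were named after their values were seen. Erythrocyte markers (4 of 4 detected, most from miR-486-5p and miR-451-5p) summed to 3621, 1230 and 7682 CPM in uterine replicates 12, 3 and 4 and to 922 to 2880 CPM in oviductal libraries. Leukocyte markers (5 of 6 detected, with miR-142-5p at 0), led by miR-155-5p and miR-150-5p, summed to 1157, 786 and 3491 CPM and to 999.8 to 2349 CPM. Of liver and plasma, miR-122-5p reached 3057, 579 and 299 CPM in uterine and 61.5 to 588 CPM in oviductal libraries. The part of muscle, epithelium, blood or liver miRNAs in the members' levels was not tested.

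**Figure D4:**
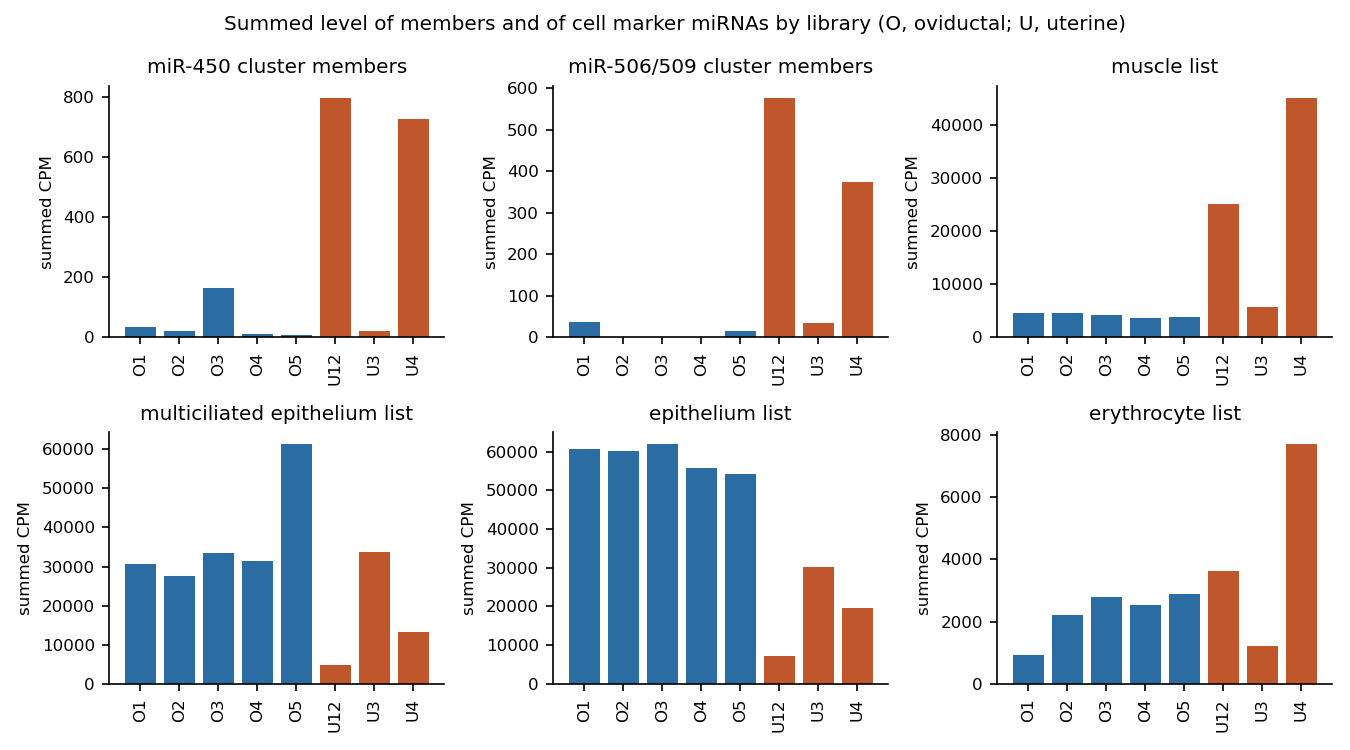
Summed CPM by library of the 3 miR-450 cluster members, the 4 members of the miR-506 cluster and 4 marker lists, with oviductal libraries (O) in blue and uterine (U) in orange; each panel has its own scale from 0. U12 and U4 exceed U3 for both clusters, muscle and erythrocyte markers, and U3 exceeds them for the epithelial lists.

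Members could also be set against miRNAs of like abundance for the number of libraries in which they had reads. The members with 200 to 400 reads in all, miR-450a-5p and miR-509b/c-5p, were found in 5 libraries each, where 29 profiles of that range had a median of 7. The families were chosen because both were lower in oviductal libraries, so nothing is read from that difference. The members with 50 to 100 reads were miR-424-3p in 4 libraries and miR-450b-5p in 6, where 30 profiles had a median of 5. In the range of 10 to 20 reads 7 of 31 profiles had reads in 1 library only, miR-506-3p and miR-509c-3p among them.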

How the data were processed

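Small RNA of 8 vesicle pools was sequenced. The authors deposited raw counts, 1 row for a mature miRNA and its precursor. The deposited RPM are those counts divided by the library's sum over all rows and multiplied by 1000000, which was checked to within 0.005. Genome build OryCun2.0 and FastQC are named, per the submitters' processing notes. The aligner and the counter were not given in the sources used here. Vesicles were isolated by size exclusion after spins at 300 g and 10000 g and a 0.22 µm filter, per the labels' protocols.

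The 615 rows were reduced to 579 names by the row of highest total, and CPM were computed from the counts. These CPM leave out the TMM scaling factors of the fit, which ran from 0.666 in uterine replicate 3 to 1.29 in oviductal replicate 3. Groups were compared with edgeR 4.0.16 under R 4.3.3 (quasi-likelihood test with robust shrinkage, TMM, filterByExpr, Benjamini-Hochberg adjusted p under 0.05), checked on simulated data. SE is the absolute log2 fold change over the root of F. Alternatives used DESeq2 1.42.0 and limma 3.58.1, other scaling, no filter, summed rows, replicate blocks and the removal of each library. Members are named in full. The miRNAs most like a member (3 each, for members with 10 reads in at least 3 libraries) and up to 2 of the most abundant of each list were named by rule. Members and lists were chosen with earlier results of these data known. RefSeq order is of mOryCun1.1 and carries no coordinates here.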

Additional observations from a re-analysis of the deposited data

Results flagged for a closer look

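In 3 of the oviductal profiles 1 library lay far from the other 4, by the size of its gap to the nearest library over the whole range. In oviductal replicate 3 miR-424-3p was at 70.3 CPM, with the next library at 11.8 CPM, and miR-450a-5p was at 93.7 CPM, with the next at 22.6 CPM. These rest on 3 and 4 reads in the shallowest library. In oviductal replicate 1 miR-509a-3p was at 13.6 CPM from 6 reads, and the other 4 had none. A profile with reads in a single library, as the last, is always marked by this measure. For continuous values chance gives about 1 such library in 20 groups, and that rate was not checked for counts this low. Only 5 oviductal profiles had any spread to examine. The uterine group, with 3 libraries, was not examined in this way.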

How the results depend on the processing

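The log2 fold change of miR-450a-5p was positive in the 15 alternatives that gave a value. It ran from 2.86 ± 2.86 (SE) with a replicate block by title number to 5.05 without oviductal replicate 1. With that block the contrast comes only from the libraries numbered 3 and 4, so uterine replicate 12 does not enter it. Without oviductal replicate 3, and without both shallow libraries, miR-450a-5p did not pass the filter. Mean levels of members kept within 1 SD with the authors' RPM and with medians, although the uterine median of miR-424-3p, miR-506-3p, miR-509a-3p and miR-509c-3p was 0. The count of called miRNAs over the whole table, 3 by edgeR, was less stable. It was 1 with library totals only, 13 with no filter, 11 by DESeq2, 1 by limma-voom and 7 with rows of a name summed. All called were higher in uterine vesicles in the edgeR result, with 9 of the 11 by DESeq2. It was 0 without the 2 shallowest libraries, chosen after seeing the data (20 at an unadjusted p under 0.05). Leaving out 1 library gave 1 to 27, with 1 when oviductal replicate 2 or uterine replicate 12 was removed, 9 on removing uterine replicate 4 and 27 on removing uterine replicate 3. With a replicate block by title number or by library-name number it was 0 (8 and 11 at an unadjusted p under 0.05). Such a block draws the contrast only from numbers that occur in both groups. Title numbers 3 and 4 occur in both groups, and deviations of same-numbered libraries correlated at -0.12 and -0.11 across miRNAs. By library-name number the library titled uterine 12 is number 1, which pairs it with oviductal replicate 1. Their deviations correlated at -0.13. No source used here says that a number marks shared animals, although pools of the 2 groups may share does. Depth limits what can be seen of low members: in oviductal replicates 2 and 3 a level under 63.0 and 70.3 CPM can go unseen.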
